A study of Caenorhabditis elegans with 3 samples.

Results

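The genes described here are 10 Caenorhabditis elegans genes of the unfolded protein response of the endoplasmic reticulum (ER). They were chosen by symbol, as xbp-1, ire-1, pek-1, atf-6, hsp-3, hsp-4, crt-1, cnx-1, sel-1 and rtcb-1. All 10 symbols were found once among the 46739 genes of the deposited count table, of which 20362 were protein coding. The table holds RNA sequencing counts of 3 libraries of dissected germline from the laboratory wild type, N2, and the series was set up to find transcription factors expressed there. These 3 libraries form 1 group, so no treated or mutant group exists and no test between conditions was possible. The labels give no age, sex or growth condition and do not say whether the numbered samples came from separate animals, so the spread between libraries may be technical.

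The ER folds membrane and secreted proteins. When unfolded proteins build up there, sensors in its membrane signal to the nucleus and the ribosome. In the best conserved branch, the kinase and ribonuclease IRE-1 cuts a short segment out of the xbp-1 mRNA and the ligase RTCB-1 joins the ends, so that the transcription factor XBP-1 is made in its active form. The kinase PEK-1, the worm PERK, lowers translation by phosphorylating eIF2 alpha, and ATF-6 is a membrane-bound transcription factor that is released by proteolysis. Known outputs of the response include chaperones, folding enzymes and the machinery that extracts misfolded proteins for degradation. A germline with growing oocytes makes large amounts of eggshell proteins and yolk receptor, which pass through the ER.

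The libraries held 14523486, 15566299 and 16656171 counts in replicates 1, 2 and 3. The 10 genes together took 0.176%, 0.213% and 0.189% of them. Of the markers of germ cells and oocytes, 7 of 7 reached 1 CPM (the reads of a gene per 1000000 counted reads of that library) in every library, while 0 of 4 pharynx markers did. Sperm markers summed to 2961, 350.6 and 837.3 CPM in replicates 1 to 3. Hypodermal markers reached 1 CPM in every library in 2 of 4 cases and summed to 526.5, 39.2 and 101.9 CPM, the same order. That sum was carried by col-140 (423.7, 30.4 and 84.7 CPM) and col-19 (102.7, 8.80 and 16.9 CPM). By contrast dpy-7 had 2, 0 and 0 reads and rol-6 had 0, 0 and 6. Some other somatic markers were detected. Body muscle markers reached 1 CPM in every library in 3 of 5 cases and summed to 390, 238.3 and 230.4 CPM. That sum was carried by unc-54 (191.3, 122.3 and 112.5 CPM) and unc-15 (177.4, 105.9 and 104.8 CPM). In contrast tnt-2 had 60, 8 and 20 reads and hlh-1 had 1, 0 and 2. Neuronal markers reached 1 CPM in every library in 3 of 5 cases and summed to 41.8, 45.3 and 42.2 CPM. Most of that came from snb-1 (33.6, 36.8 and 35.5 CPM), while rab-3 had 9, 11 and 4 reads and rgef-1 had 2, 0 and 0. Of the intestinal markers 3 of 6 reached 1 CPM in every library, namely the yolk protein genes vit-6 and vit-2 and the protease gene asp-1. The lowest of that list was elt-2, a GATA factor gene, at 0.18 CPM or below. Gonad sheath and spermatheca markers were found in 6 of 6 cases and summed to 309, 382.9 and 230.9 CPM.

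All 10 genes had at least 1 CPM in every library, a level reached by 40.2% of protein-coding genes. At least 100 CPM in every library was reached by 6 of the 10, against 7.03% of protein-coding genes. These counts were not corrected for gene length. The least covered gene, atf-6, still had 86 to 92 reads in a library. In a bulk sample of this kind, fewer cells with a transcript and less RNA per cell cannot be told apart.

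**Figure D1:**
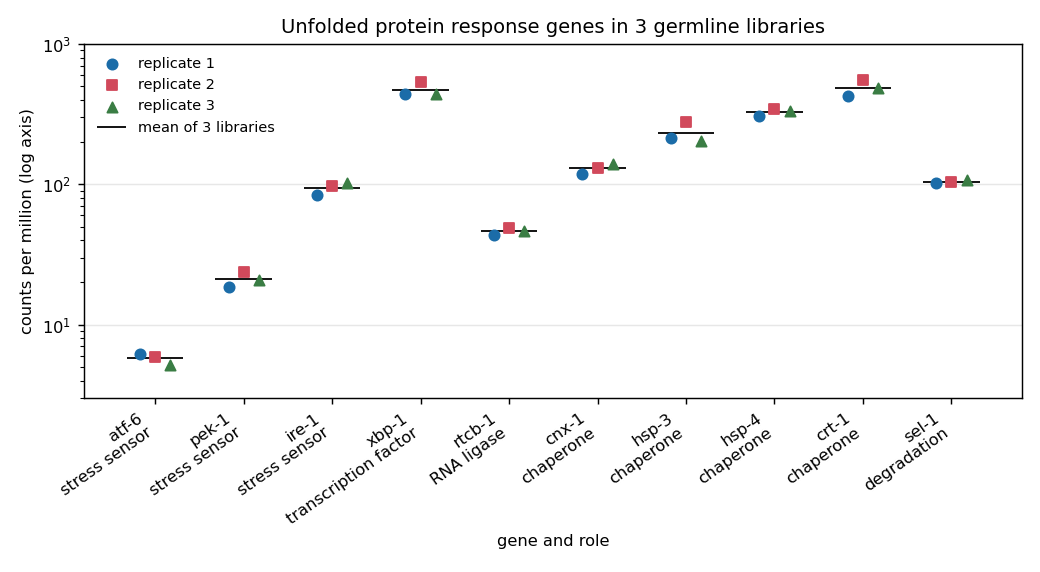
CPM (log axis) of the 10 genes, grouped by role, in the 3 libraries; each symbol is 1 library and the bar is the mean of 3. The spread between libraries of a gene, at most 1.37-fold for hsp-3, is what a reader should see here, since levels of different genes on this axis are not corrected for length.

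Among the sensors, ire-1 had the highest level and atf-6 the lowest. The ire-1 gene (WBGene00002147, chromosome II, 8112243 to 8124910, minus strand) had 83.3, 97.1 and 101.9 CPM in replicates 1, 2 and 3. The pek-1 gene (WBGene00003970, chromosome X, 11410176 to 11414887, minus strand) had 18.6, 23.6 and 20.8 CPM. The atf-6 gene (WBGene00000222, chromosome X, 12480948 to 12484904, plus strand) had 6.20, 5.91 and 5.16 CPM. For ire-1 and pek-1 the lowest library was replicate 1, and for atf-6 it was replicate 3.

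To compare genes, CPM were divided by the length in kilobases of all annotated exons of a gene, which gives a level in CPM per kilobase of exon. On this scale ire-1 had 27.7 ± 2.84, pek-1 5.66 ± 0.683 and atf-6 2.40 ± 0.222 (SD, n = 3 for each). The level of ire-1 exceeded that of pek-1 by 4.89, 4.48 and 5.35 times in replicates 1 to 3. It exceeded that of atf-6 by 9.5, 11.6 and 13.9 times. The median of detected protein-coding genes (at least 1 CPM in every library) was 22.2, so ire-1 lay above it and the other sensors lay below it. Both low sensors are X-linked, and the X chromosome is known to be largely silent in much of the germline. At least 1 CPM in every library was reached by 3 of the 3 X-linked genes of the 10 (pek-1, atf-6 and hsp-3), against 32.8% of X-linked protein-coding genes. Detected X-linked genes had a median of 5.47 CPM per kilobase and detected autosomal genes one of 25.7, so pek-1 lay near the X median and atf-6 below it. The X-linked hsp-3, at 87 ± 15.2, lay above both medians. Whether X linkage has a part in the levels of these genes was not tested.

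The counting error was largest for atf-6. Its exact (Clopper-Pearson) 95% intervals were 4.98 to 7.62, 4.76 to 7.25 and 4.13 to 6.38 CPM, which overlap, so a difference between libraries was not detectable at this depth. These intervals cover counting error only, and they treat every read as a separate molecule. No molecular identifiers are described that would tell PCR copies apart, so the intervals may be too narrow.

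The xbp-1 transcript was abundant beside its own regulators. The gene (WBGene00006959, chromosome III, 4193809 to 4195358, plus strand) had 441.0, 539.4 and 440.4 CPM in replicates 1 to 3. Replicates 1 and 3 lay within counting error of each other and replicate 2 lay above them. Per exon length its level was 327.5 ± 39.4, which placed it above 95.9% of detected protein-coding genes. It exceeded ire-1 by 12.5, 13.1 and 10.2 times in the 3 libraries. It exceeded atf-6, the other transcription factor of the group, by a mean of 136.4 times, a log2 difference of 7.09 ± 0.19 (SD, n = 3).

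The annotation lists 2 transcripts of xbp-1, which share their coding exons and have introns of 50, 54 and 40 bases, the last in the 3′ untranslated region of 1 of them. Counts per gene therefore do not tell the form cut by IRE-1 from the uncut form. The level of xbp-1 is that of both forms together and is no measure of IRE-1 activity.

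The ligase gene rtcb-1 (WBGene00008877, chromosome I, 9390833 to 9393095, minus strand) had 43.8, 48.5 and 46.2 CPM, with overlapping counting intervals. RTCB-1 also joins tRNA exons after their introns are removed, so its transcript is needed outside this response. Per exon length it had 28.2 ± 1.44 and lay level with ire-1, with a mean ratio of 1.02 and values that overlapped between the libraries. The level of xbp-1 was 11.4, 12.6 and 10.8 times that of rtcb-1. Among other RNA ligase and tRNA splicing genes, the highest were tsen-2, a tRNA splicing endonuclease gene, at 29.2 ± 4.08 and arch-1, the gene of the ligase co-factor archease, at 20.9 ± 4.78. The lowest of that list was tsen-34 at 8.39 ± 1.27, and 3 of 3 matched genes were detected.

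**Figure D2:**
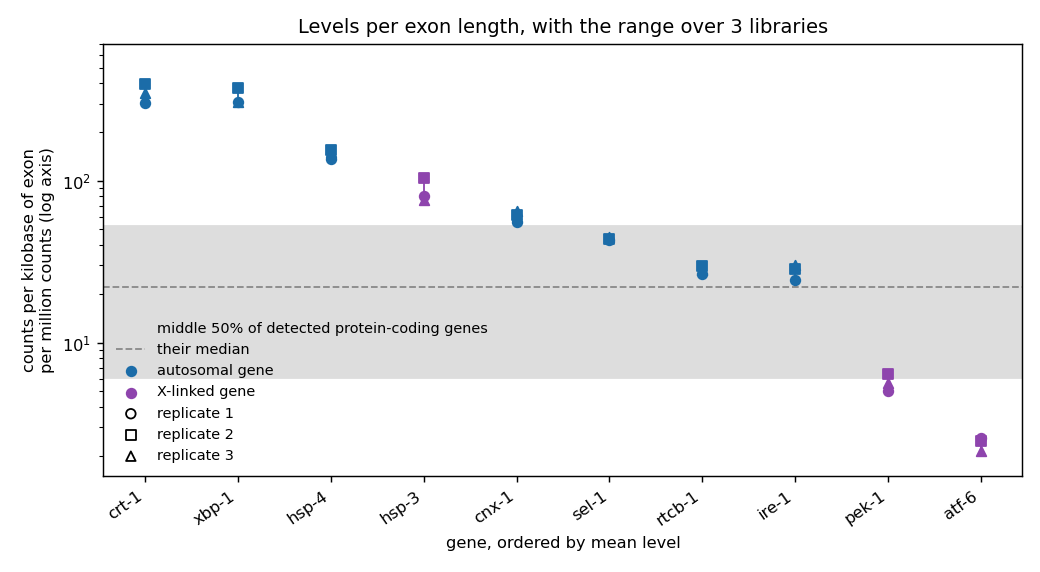
CPM per kilobase of exon (log axis) of the 10 genes, ordered by their mean; symbols are libraries, lines join the lowest and highest, purple marks X-linked genes, and the grey band holds the middle 50% of detected protein-coding genes around their median of 22.2. From crt-1 at 348.2 to atf-6 at 2.40, the ranges of neighbours overlap only for crt-1 with xbp-1 and for rtcb-1 with ire-1.

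Chaperone genes made up most of the upper part of the order. Calreticulin, encoded by crt-1 (WBGene00000802, chromosome V, 6098992 to 6100542, minus strand), binds calcium and glycoproteins in the ER. Its gene had 422.9, 552.7 and 487.8 CPM in replicates 1 to 3, with no overlap of the counting intervals. Per exon length it had 348.2 ± 46.3, the highest mean of the 10 genes and above 96.1% of detected genes. It did not lie apart from xbp-1 in these libraries, with a mean ratio of 1.06 and with xbp-1 the higher of the pair in replicate 1. Of its exon bases, 92 (6.57%) overlap the gene smut-1 on the opposite strand, which had 82.6 CPM. Whether strand was used in counting is not given in the sources used here. Reads from that stretch may be missing or shared.

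The membrane-bound relative of calreticulin, calnexin, is encoded by cnx-1 (WBGene00000567, chromosome III, 9814364 to 9817137, minus strand). It had 118.8, 131.8 and 139.9 CPM, lowest in replicate 1. Per exon length its level was 60.8 ± 4.98, and crt-1 exceeded it by 5.44, 6.41 and 5.33 times in the 3 libraries. A stretch of 49 of its exon bases (2.29%) overlaps ZK632.14 on the opposite strand.

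The worm has 2 genes for the ER HSP70 chaperone BiP, hsp-3 and hsp-4. The hsp-4 promoter is a widely used reporter of ER stress in worms because hsp-4 is strongly induced through xbp-1, while hsp-3 is less inducible. In the germline the inducible copy had the higher level. The hsp-4 gene (WBGene00002008, chromosome II, 7350112 to 7352645, minus strand) had 306.3, 345.9 and 334.6 CPM in replicates 1 to 3. The hsp-3 gene (WBGene00002007, chromosome X, 6089028 to 6092124, minus strand) had 213.7, 278.4 and 203.6 CPM. The lowest library was replicate 1 for hsp-4 and replicate 3 for hsp-3, and both genes were highest in replicate 2.

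Per exon length every library of hsp-4 lay above every library of hsp-3, and hsp-4 had 147.4 ± 9.14 and hsp-3 had 87 ± 15.2 CPM per kilobase. Within a library hsp-4 exceeded hsp-3 by 1.71, 1.48 and 1.96 times, a mean log2 difference of 0.77 ± 0.20 (SD, n = 3). The direction was the same in all 3 libraries, and the difference was larger than its spread. Both genes were read in the same 3 libraries, so the comparison is paired. Samples this few allow no exact permutation p below 0.1 even for 3 unpaired values against 3, so none is given. The size depended on the length used, since hsp-3 has the longer annotated untranslated exons. With coding lengths (1983 bases for hsp-3 and 1971 bases for hsp-4) the log2 difference, written as hsp-3 minus hsp-4, was -0.52 instead of -0.77. As related copies, the genes may share reads that match both, and how such reads were counted is not stated. The split between them is uncertain to that extent. Although X-linked, hsp-3 lay above 85.2% of all detected genes per exon length.

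The median level per exon length of the 4 chaperone genes exceeded that of the 3 sensor genes, which was the level of pek-1, by a log2 difference of 4.44, 4.35 and 4.34 in replicates 1 to 3. The mean was 4.37 ± 0.06 (SD, n = 3), or 20.7 times. All 4 chaperone genes lay above all 3 sensors in every library on this scale.

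The gene of the degradation branch varied least. The sel-1 gene (WBGene00004759, chromosome V, 12560732 to 12563383, plus strand) encodes the worm HRD3, a partner of the ubiquitin ligase HRD1 in ER-associated degradation. It had 102.7, 103.7 and 107.3 CPM, with a ratio of 1.05 between the highest and the lowest library. These values lie within counting error of one another. Per exon length sel-1 had 43.9 ± 1.02. The gene of its partner ligase, sel-11, was 1.67, 1.75 and 1.81 times as high.

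In the order of levels per exon length, crt-1 and xbp-1 came first, followed by hsp-4, hsp-3, cnx-1, sel-1, rtcb-1, ire-1, pek-1 and atf-6. Neighbours lay apart in 7 of 9 cases, in that no library of the lower gene reached the higher gene. The exceptions were crt-1 with xbp-1 and rtcb-1 with ire-1. With coding lengths xbp-1 (550.1) stood above crt-1 (411.6) and ire-1 above rtcb-1, so the order within these pairs depends on the length used. All other places stayed the same.

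No gene of the 10 differed by 1.5 times or more between its highest and lowest library, against 30.0% of detected protein-coding genes. With TMM scaling 1 did, hsp-3 at 1.51. The median ratio was 1.21 for the 10 genes and 1.30 for detected protein-coding genes. High counts alone make ratios smaller, so each gene was set beside detected genes within 2-fold of its own CPM. Of 2344 such genes for sel-1, 95.8% had a larger ratio than its 1.05, and of 2846 for rtcb-1, 82.4% had a larger ratio than its 1.11. At the other end, hsp-3 had a ratio of 1.37, and 22.2% of 1130 genes of like CPM had a larger one. The genes xbp-1, ire-1, pek-1 and cnx-1 lay near the middle, with larger ratios in 42.9% to 56.8% of genes of like CPM. That share was 85.7% for atf-6, 75.7% for hsp-4 and 34.6% for crt-1.

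Replicate 2 was most often the highest library of the 10 genes. It was the highest library for xbp-1, pek-1, hsp-3, hsp-4, crt-1 and rtcb-1, that is 6 of 10, against 32.2% of detected protein-coding genes. Replicate 3 was highest for ire-1, cnx-1 and sel-1 (3 of 10, against 45.7%), and replicate 1 for atf-6 alone (against 22.1%). For xbp-1, hsp-3 and crt-1 the counting interval of replicate 2 lay above those of both other libraries. For pek-1, hsp-4 and rtcb-1 it overlapped that of replicate 3. The interval of the highest library also overlapped another for ire-1, cnx-1, sel-1 and atf-6. Counted relative to the mean of replicates 1 and 3, replicate 2 was higher by a median of 7.85% over the 10 genes, and the median over all detected genes was -1.64%. The largest excess was that of hsp-3, at 278.4 CPM against 213.7 and 203.6. This comparison was chosen after the values were seen.

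The count of 6 rose under every other scaling tried, as did the background. It was 9 of 10 with TMM scaling (background 47.8%), 9 of 10 with DESeq2 size factors (40.5%) and 7 of 10 with totals of protein-coding genes (39.3%). In each case atf-6 was highest in replicate 1. The median excess of replicate 2 with TMM scaling was 15.7% over the 10 genes and 5.62% over all detected genes.

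**Figure D3:**
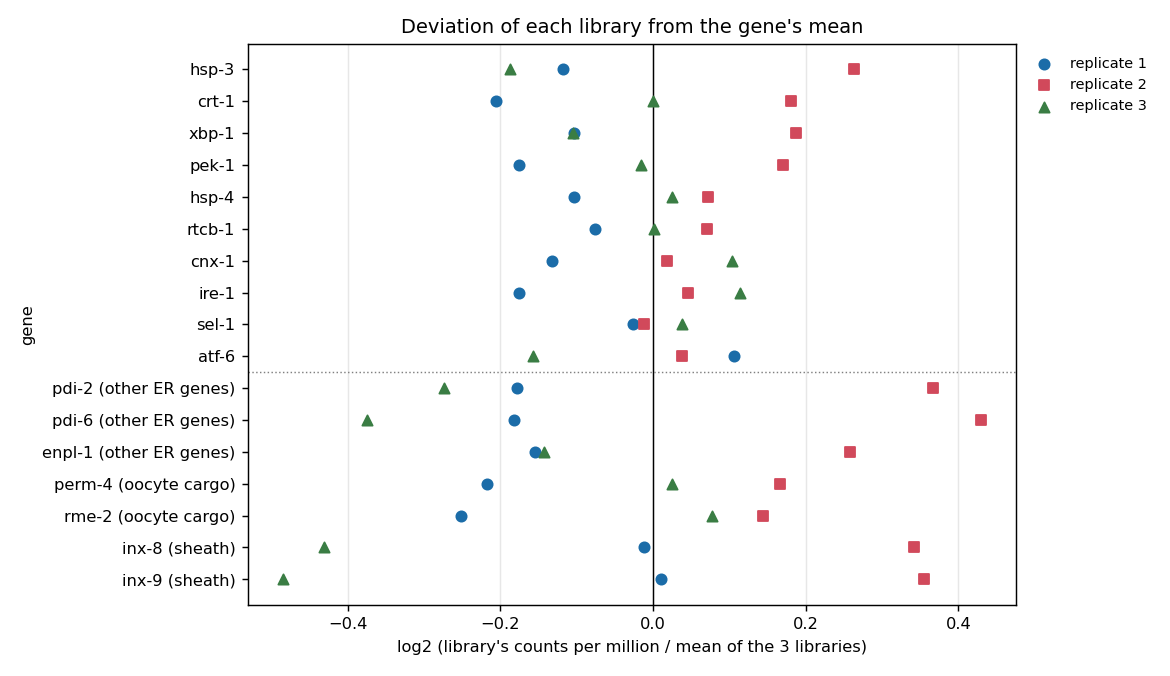
The log2 ratio of each library's CPM to the mean of the 3 libraries, for the 10 genes (above the dotted line) and for other genes below it. Those are the ER genes pdi-2, pdi-6 and enpl-1, the oocyte genes perm-4 and rme-2, and the sheath genes inx-8 and inx-9. The genes below the line are a selection, all highest in replicate 2. Over their lists, 10 of 16 detected ER folding genes and 3 of 6 sheath and spermatheca genes were highest there, against 32.2% of detected protein-coding genes. Replicate 2 (squares) lies furthest to the right for 6 of the 10 genes, hsp-3, crt-1, xbp-1, pek-1, hsp-4 and rtcb-1, as it does for pdi-2, enpl-1, perm-4 and inx-8.

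Replicate 2 also differed in other measures. It had the highest share of ribosomal RNA (9.04%, against 7.24% and 4.61% in replicates 1 and 3) and the lowest summed level of sperm markers. The sheath innexin gene inx-8 had 230.5, 294.6 and 172.4 CPM in replicates 1 to 3, and its partner gene inx-9 had 49.99, 63.5 and 35.5 CPM. The sheath and spermatheca list did not move as a whole, since 3 of its 6 genes were highest in replicate 2 (inx-8, inx-9 and fkh-6). Of the others, lim-7 (7.23, 6.49 and 8.71 CPM) and ceh-18 (4.27, 2.63 and 3.66 CPM) were lowest there, and sth-1 (7.78, 6.36 and 3.12 CPM) was highest in replicate 1. The intestinal list summed to 275.1, 1025 and 533.6 CPM, which was carried by vit-2 (116.2, 483.6 and 255.5 CPM) and vit-6 (108.5, 516.8 and 266.7 CPM). The intestinal asp-1 (46.6, 23.1 and 8.89 CPM) and ifb-2 (3.30, 0.642 and 2.10 CPM) were instead highest in replicate 1. Most genes of the list of oocyte cargo encode eggshell or surface proteins or the yolk receptor. Of this list 12 of 12 genes were highest in replicate 2, against 32.2% of detected protein-coding genes. Their median excess over the mean of the other libraries was 17.3%. The list of germ cell and oocyte markers did not share this. Of it 2 of 7 genes (28.6%) were highest in replicate 2, namely puf-5 and rme-2, which is in both lists. With TMM scaling 4 of 7 (57.1%) were, against 47.8% of detected protein-coding genes. The part of these differences in the levels of the 10 genes was not tested.

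The wider ER machinery was examined with lists of related genes. Of 125 listed symbols, 7 did not match the table and 3 named a gene already listed. Of the remaining 115 genes 91 were detected, against 40.2% of all protein-coding genes. That share stands beside the detection count of each list.

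The folding genes pdi-2 and enpl-1 had higher levels per exon length than any of the 10 genes in every library. In the list of protein disulfide isomerases with the oxidase ERO1, 6 of 6 genes were detected, with a median of 203.2 CPM per kilobase. The highest were pdi-2 (714.0, 1042 and 668.3 in replicates 1 to 3) and pdi-6 (348.7, 532.7 and 304.9), both X-linked and both highest in replicate 2, and the lowest was C14B9.2 at 5.0 ± 1.38. Of the other ER chaperones and folding factors 10 of 13 were detected, with a lower median of 11.7. The ER HSP90 gene enpl-1 stood far above the rest of that list at 720.1, 959.1 and 726.2. It was 5.25, 6.19 and 4.84 times as high as hsp-4, and 3.41 ± 0.257 times (SD, n = 3) as high as hsp-3 and hsp-4 summed. The second highest was T24H7.2 (44.1 ± 1.96), and the lowest, uggt-2, had 26, 4 and 11 reads. Of the 10 detected chaperone and folding genes 6 were highest in replicate 2, or 9 with TMM scaling, and of the 6 isomerase and oxidase genes 4 were under both. The shares over all detected protein-coding genes were 32.2% with column totals and 47.8% with TMM.

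Protein entry and glycosylation genes were detected throughout. Of the translocation and signal peptidase list, 12 of 12 genes were detected with a median of 87.1, and 9 were highest in replicate 2, or 10 with TMM scaling. The translocon gene sec-61 had 1412, 1784 and 1729 CPM per kilobase in replicates 1 to 3, which was 10.3, 11.5 and 11.5 times the level of hsp-4. The gamma subunit gene emo-1 followed at 195.2 ± 21.7, and hpo-21, a signal peptidase subunit gene, was the lowest at 2.31 ± 0.688. The oligosaccharyl transferase genes were detected in 5 of 5 cases with a median of 129.9, from ostd-1 (64.6 ± 6.10) to ribo-1 (143.7 ± 7.30) and ostb-1 (157.3 ± 7.45). All 5 were highest in replicate 2, or 4 of them with DESeq2 size factors. The shares over all detected protein-coding genes were 32.2% with column totals, 47.8% with TMM and 40.5% with DESeq2 size factors.

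Degradation genes were detected in 17 of 17 cases with a median of 53.2, close to the 43.9 of sel-1. The ER ubiquitin-conjugating enzyme gene ubc-6 (272.3 ± 1.07) and cdc-48.1 (269.6 ± 6.14), a gene of the ATPase that extracts proteins from the ER membrane, were the highest, and the peptide N-glycanase gene png-1 (11.1 ± 0.947) was the lowest. Of these 17 genes 4 (23.5%) were highest in replicate 2, against 32.2% of all detected protein-coding genes, and with TMM scaling 11 (64.7%) were, against 47.8%. None had a ratio of 1.5 or more between libraries by column totals.

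The branch that PEK-1 shares with other kinases, the integrated stress response, was detected in 11 of 11 genes with a median of 29.7. Of these 11 genes 2 (18.2%) were highest in replicate 2, against 32.2% of detected protein-coding genes. With TMM scaling 4 (36.4%) were, against 47.8%. The eIF2 subunit genes iftb-1 (127.3 ± 3.49) and Y39G10AR.8 (current symbol eif-2gamma, 115.2 ± 12.6) were the highest, and F11A3.2 (eif-2Bdelta, 7.10 ± 0.169) was the lowest. The amino acid sensing eIF2 kinase gene gcn-2 had 15.4 ± 1.17, which was 3.07, 2.23 and 2.96 times the level of pek-1. The transcription factor gene atf-5, now named atf-4, which is translated when eIF2 is phosphorylated, had 18 ± 0.792. The xbp-1 level was 17, 21.6 and 16.17 times as high.

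Of the ER calcium genes 3 of 3 were detected, with the calcium pump gene sca-1 at 65.6 ± 3.51, the inositol trisphosphate receptor gene itr-1 at 1.58 ± 0.228 and the ryanodine receptor gene unc-68 at 1.13 ± 0.226. The calcium-binding crt-1 lay above all of them. The abu genes, named for being activated in worms whose unfolded protein response is blocked, were detected in 0 of 15 cases. No read was counted for abu-1, abu-2, abu-5, abu-6, abu-7, abu-8, abu-9, abu-10, abu-12 and abu-15. A count of 0 allows up to 0.207, 0.193 and 0.18 CPM in replicates 1 to 3, taken as 3 counts of the total. The highest of the list, abu-13 and abu-11, had 6, 4 and 24 reads and 8, 1 and 7 reads. Several abu genes are close copies of each other, so reads matching more than 1 of them may not have been counted.

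**Figure D4:**
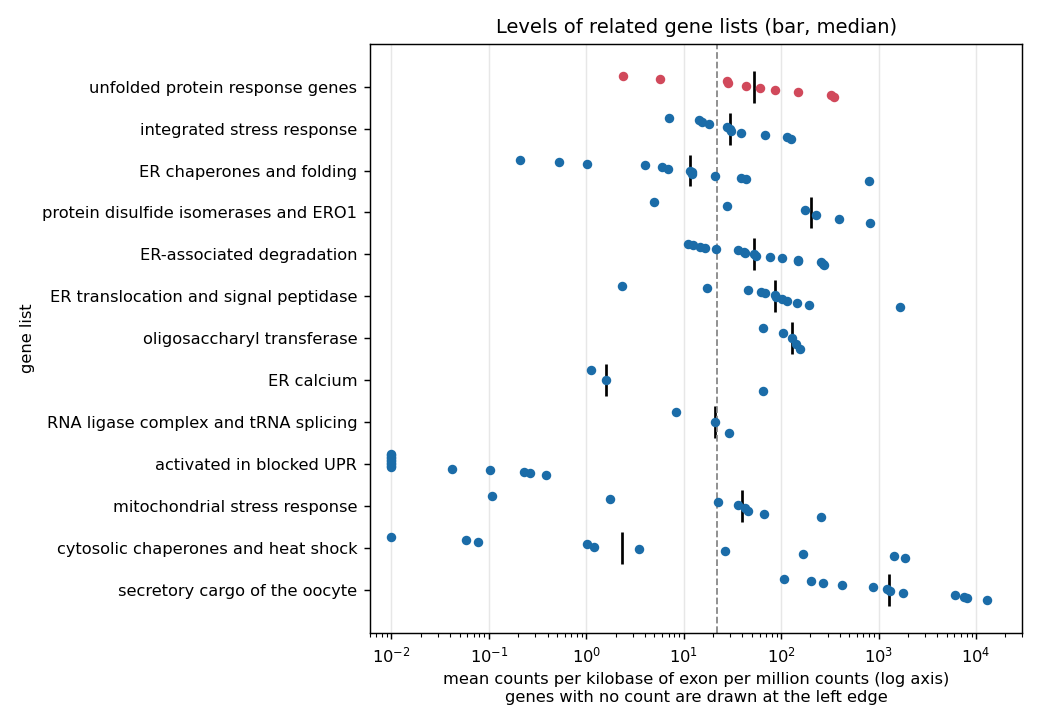
Mean CPM per kilobase of exon (log axis) of each gene in the 10 unfolded protein response genes (red) and in 12 related lists (blue), with black bars at list medians and a dashed line at the median of detected protein-coding genes. The 10 genes span 2.40 to 348.2 with a median of 52.3, while the abu genes (activated in blocked UPR, the unfolded protein response) lie at or near no count.

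The ER HSP70 genes were lower than their cytosolic relative and higher than the mitochondrial one. Summed, hsp-3 and hsp-4 had 217.4, 259.4 and 226.3 CPM per kilobase in replicates 1 to 3. The constitutive cytosolic HSP70 gene hsp-1 had 1496, 1388 and 1411, or 6.16 ± 0.769 times that sum. The mitochondrial HSP70 gene hsp-6 had 47.0, 41.5 and 50.2, or 0.199 ± 0.034 times that sum. The order of the 3 levels was the same in all 3 libraries.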

How the data were processed

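RNA of 3 dissected germline samples was sequenced after full-length amplification with the SMART-Seq Ultra Low Input chemistry, per the labels' protocols. The authors deposited raw read counts per gene. The tools STAR and featureCounts and the build WBcel235 are named per the submitters' processing notes, with versions, annotation release and multi-mapping rule not given in the sources used here. CPM were computed on each column total. Exon lengths and positions came from the Ensembl release 115 annotation of WBcel235, and 246 protein-coding genes without an entry were left out of length-based ranks. No conditions exist to test. Spread was also estimated with edgeR 4.0.16 (intercept only, TMM, detected genes), tested on simulated data; these estimates are pulled towards the trend over genes. DESeq2 1.42.0 gave size factors. The libraries differed by more than counting error in a chi-square of their counts (78.3 to 137.8 per degree of freedom).

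The genes and lists were chosen with earlier results of these data known. The rule for named genes took all 10 genes with every library's value, the 2 highest and the lowest gene of each list, and list genes with no count; likeness of patterns was not computed over 3 samples. Genes named beyond that rule, such as gcn-2, sel-11, inx-8 and perm-4, were chosen after their values were seen. Of the listed symbols 7 were not matched and 15 genes were matched by their current symbol. Sequences, promoter motifs and shared sequence between copies were not analysed here. Alternatives were other CPM minima, scalings, lengths and a pseudocount, and leaving out each replicate.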

Additional observations from a re-analysis of the deposited data

How the results depend on the processing

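All 10 genes remained detected at minima of 0.5 and 5 CPM, in 2 of 3 libraries, under each scaling and without any replicate, and 9 did at 10 CPM, where atf-6 was lost. The count of 6 genes at 100 CPM or more was the same in every alternative tried. The count of genes with a ratio of 1.5 or more between libraries was 0, and 1 (hsp-3) with TMM scaling. The log2 ratio of hsp-3 to hsp-4 was -0.77, and -0.52 both with coding lengths and with no length correction, which follows from the untranslated length of hsp-3; without 1 replicate it ranged from -0.87 to -0.67. The log2 difference between the chaperone and sensor medians was 4.37, and 4.45 with coding lengths and 4.15 with a pseudocount of 1, which compresses low levels by construction. The median coefficient of variation that edgeR terms biological was 21.6%, from 19% for rtcb-1 to 31.0% for atf-6. These estimates are pulled towards the trend over genes, which was 27.3% at rtcb-1 and 43.7% at atf-6. The SD of CPM as a share of the mean was smaller for every gene, from 2.32% for sel-1 to 17.5% for hsp-3. The median estimate ranged from 19.2% to 31.0% without 1 replicate, and the rise without replicate 3 has a cause that was not tested. Between 83 and 93 of the 115 list genes were detected under the alternatives. Of single-gene and single-list values, 201 kept within the spread or 1.5 times the count and 43 moved. The 43 include the share of protein-coding genes below each of the 10 genes. That share had no spread, so any change in it was labelled as moved. A change of sign was looked for only in the hsp-3 to hsp-4 ratio and the chaperone to sensor difference, and neither changed sign. Totals of protein-coding genes raised CPM by 0.12, 0.14 and 0.08 on the log2 scale in replicates 1 to 3. No pairing of samples was possible because they form 1 group. With 3 libraries, the spread itself is known only roughly, and counting error covered all differences between libraries for atf-6, sel-1 and rtcb-1.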

Other observations

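Stress responses of other compartments gave a mixed picture. Of the mitochondrial list 7 of 8 genes were detected, led by the chaperonin gene hsp-60 (267.1, 224.8 and 283.2 CPM per kilobase in replicates 1 to 3) and the protease gene clpp-1 (67.0 ± 2.37). The exception was dve-1, with 7, 0 and 10 reads. Of the 7 detected genes 4 (57.1%) were highest in replicate 2, against 32.2% of detected protein-coding genes. Of the cytosolic list 5 of 10 genes were detected, and 1 of those 5 (20%) was highest in replicate 2, against the same 32.2%. The HSP90 gene daf-21 (1847 ± 145) and hsp-1 led it, and hsp-16.48, a small heat shock gene with near-identical copies, had no read in any library. The cytosolic daf-21 was 2.74, 1.95 and 2.33 times as high as its ER relative enpl-1. The genes of the oocyte cargo list had a median of 1270 and ranged from egg-3 (107.1 ± 5.96) to perm-2 (8085 ± 1172) and clec-87 (12841 ± 1219).

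Of the gene symbols as deposited, 11 have the form of a calendar date. One of them is Mar-06, whose identifier WBGene00018847 belongs to marc-6, a membrane ubiquitin ligase gene of ER-associated degradation, with 648, 642 and 830 reads. Others are Apr-01 (apr-1), Sep-01 (sep-1) and Jun-01 (jun-1). A search of this table by symbol alone misses these genes, and marc-6 was found here through its identifier. None of the 10 unfolded protein response genes was affected.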
